A study of Homo sapiens with 6 samples.

Results

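The cyclin-dependent kinase (CDK) inhibitor genes were described in PC9, a human cell line established from lung adenocarcinoma that carries an activating EGFR deletion. They were taken as the rows of the gene table named CDKN1A, CDKN1B, CDKN1C, CDKN2A, CDKN2B, CDKN2C, CDKN2D or CDKN3, which gave 8 genes of 58174. All 8 passed the filter on low counts and were among the 19040 genes tested. Knockdown cells had received an antagomir, a chemically modified antisense oligonucleotide, directed against the small RNA tsRNA-5001a, which is cut from a transfer RNA. Control cells had received a negative control antagomir. Each group had 3 libraries of total RNA from this single line, and total gene counts lay between 32342017 and 40066223 per library. The labels leave unsaid if each library had its own culture, and a p-value here measures only the spread of the libraries, which could be technical. The small RNA itself is not measured by these counts.

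CDKs drive the cell through its division cycle when bound to cyclins, and the inhibitors hold them back. The CIP/KIP proteins p21 (CDKN1A), p27 (CDKN1B) and p57 (CDKN1C) bind cyclin-CDK complexes, chiefly those of CDK2. The INK4 proteins p16 (CDKN2A), p15 (CDKN2B), p18 (CDKN2C) and p19 (CDKN2D) bind CDK4 and CDK6 alone and keep D-type cyclins away. CDKN2A also encodes ARF, a p53-stabilising protein read in another frame from a separate start, and a count per gene adds both products together. CDKN3 is a phosphatase that removes the activating phosphate from CDK2 and is itself expressed in cycling cells.

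Promoter sequences are shown for the CIP/KIP gene CDKN1A and the INK4 gene CDKN2B, whose mRNA values did not overlap between the groups, and for both starts of CDKN2A, which the gene count cannot separate. Each runs 5′ to 3′ on the gene's strand from 250 bases before to 50 bases after a RefSeq start (GRCh38.p14), and capitals mark GC boxes, the letters GGGCGG on either strand, with overlapping matches counted. CDKN1A lies on the plus strand and the others on the minus strand. RefSeq entries were matched for 7 of the 8 genes, all but CDKN1C.
CDKN1A, chr6:36678464-36678763: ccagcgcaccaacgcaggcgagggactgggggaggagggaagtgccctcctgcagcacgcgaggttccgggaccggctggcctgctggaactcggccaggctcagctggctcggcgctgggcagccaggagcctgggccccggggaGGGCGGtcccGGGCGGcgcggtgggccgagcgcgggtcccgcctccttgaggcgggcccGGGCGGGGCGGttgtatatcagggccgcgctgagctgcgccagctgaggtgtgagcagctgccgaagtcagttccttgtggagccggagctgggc
CDKN2B, chr9:22009256-22009555: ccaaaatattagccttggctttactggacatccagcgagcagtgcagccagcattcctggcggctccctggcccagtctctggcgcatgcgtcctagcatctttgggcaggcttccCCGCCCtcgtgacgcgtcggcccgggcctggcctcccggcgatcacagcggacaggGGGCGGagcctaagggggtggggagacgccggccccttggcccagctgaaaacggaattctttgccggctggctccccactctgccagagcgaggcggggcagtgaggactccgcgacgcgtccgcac
CDKN2A, start of p16, chr9:21974808-21975107: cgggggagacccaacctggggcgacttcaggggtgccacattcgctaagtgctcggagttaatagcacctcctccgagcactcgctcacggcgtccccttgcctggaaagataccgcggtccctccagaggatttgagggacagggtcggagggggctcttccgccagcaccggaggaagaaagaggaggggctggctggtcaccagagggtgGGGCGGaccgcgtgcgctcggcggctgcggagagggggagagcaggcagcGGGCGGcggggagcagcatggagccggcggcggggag
CDKN2A, start of ARF, chr9:21995275-21995574: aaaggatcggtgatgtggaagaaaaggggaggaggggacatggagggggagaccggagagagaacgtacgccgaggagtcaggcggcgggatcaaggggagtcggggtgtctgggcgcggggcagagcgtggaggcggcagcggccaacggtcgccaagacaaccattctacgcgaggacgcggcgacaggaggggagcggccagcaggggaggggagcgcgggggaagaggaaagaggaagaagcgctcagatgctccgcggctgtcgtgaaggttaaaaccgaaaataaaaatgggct

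The CDKN1A window held 4 GC boxes, beginning at -104, -94, -45 and -40 from the start, the last 2 of which share a base. The CDKN2B window held 2, at -134 on the opposite strand and at -78. The p16 window also held 2 and the ARF window 0. Among the windows not shown, of genes whose groups overlapped, the CDKN2C starts held 0, 6 and 1. Those of CDKN2D, CDKN1B and CDKN3 held 3, 1 and 0. GC boxes are the letters bound by SP1, a general activator of transcription. Of 35116 RefSeq windows of the same length, 45.0% held at least 1 GC box and 15.8% at least 3. None of the 4 windows shown held the TATA letters TATAAA on either strand, which 11.5% of all windows did. Other TATA-like letters were not searched for. The windows shown had 25 to 29 CpG dinucleotides and those not shown 8 to 37, against a median of 14 over all windows. Of all windows, 68.0% had fewer CpG than the CDKN2B window and 75.8% fewer than the CDKN1A window, the lowest and highest of those shown. These matches describe the letters in the windows.

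Of the 8 genes, CDKN1C was the only member past the test, and it rose 2.47-fold after knockdown. The test was edgeR's quasi-likelihood test with a Benjamini-Hochberg adjusted p of 0.05 over all 19040 genes. In it 1.17% of all genes were called, 1.1% higher and 0.0735% lower. CPM, the count of a gene scaled to the TMM-adjusted library size, was apart in the groups for 4 of the 8 genes, CDKN1A, CDKN1C and CDKN2B being higher and CDKN2A lower. Over all genes 24.3% did not overlap, 13.4% higher and 10.8% lower. The same 4 genes had an unadjusted p under 0.05, 3 higher and 1 lower, as had 16.5% of all genes, 9.77% higher and 6.71% lower. The log2 fold change was above 0 for 5 of the 8 genes and below 0 for 3, against 55.9% above and 44.1% below over all genes. The median log2 fold change of the 8 genes was 0.05, and that of all genes tested was also 0.05.

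**Figure D1:**
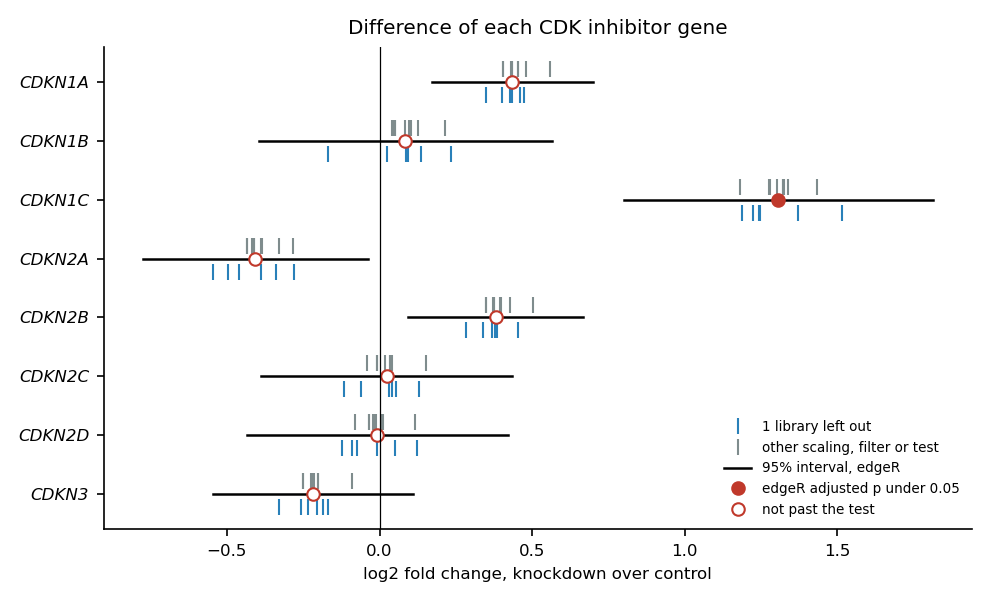
Log2 fold change of each CDK inhibitor gene, knockdown over control (horizontal axis), as edgeR's estimate (circle, filled where the adjusted p is under 0.05) with its 95% interval (line). Ticks show the estimates under other scalings, filters or tests (above the line) and with 1 library left out (below it). CDKN1C lies at 1.31 and its ticks run from 1.18 to 1.52, whereas the ticks of CDKN1B, CDKN2C and CDKN2D fall on both sides of 0.

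CDKN1C encodes p57, a CIP/KIP inhibitor known from imprinted control of fetal growth and from cells that leave the cycle to differentiate. Its level was 7.82, 6.77 and 8.196 CPM in knockdown libraries 1 to 3, against 2.73, 3.94 and 2.57 CPM in control libraries 1 to 3. The raw counts were 296, 230 and 349 in knockdown libraries, against 102, 127 and 98 in controls. Every knockdown library was higher than every control library. The means were 7.59 ± 0.739 CPM after knockdown and 3.08 ± 0.749 CPM in controls (SD, n = 3 each). On the log2 scale the fold change was 1.31 ± 0.22 (standard error; 95% interval 0.80 to 1.81), and edgeR's adjusted p was 0.0367. In bulk RNA a change in the number of cells that express a gene and a change in its RNA per cell cannot be told apart. CDKN1C (ENSG00000129757) stands in the table on chromosome 11 from 2883213 to 2885881 on the minus strand, in coordinates that match GRCh38.

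The call of CDKN1C was close to the threshold. The edgeR adjusted p was 0.108, 0.0787 and 0.148 without knockdown libraries 1, 2 and 3, and 0.107, 0.0416 and 0.133 without control libraries 1, 2 and 3. The fold change stayed above 0 in all 15 alternatives, and the call held in 7 of them, with adjusted p from 7.81e-05 (DESeq2) to 0.160 (replicate number as a block).

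CDKN1A, which encodes p21, the CIP/KIP inhibitor best known as a p53 target, was at 86.0, 76.0 and 82.4 CPM in knockdown libraries, against 57.7, 62.5 and 60.6 CPM in controls. The groups did not overlap. Means were 81.5 ± 5.08 CPM after knockdown and 60.3 ± 2.40 CPM in controls (SD, n = 3 each), with a log2 fold change of 0.44 (95% interval 0.17 to 0.70). The edgeR adjusted p of 0.139 did not pass, and over the alternatives it ran from 0.0528 to 0.362. CDKN1A (ENSG00000124762) lies on chromosome 6 from 36676460 to 36687339 on the plus strand. Of its 3050 exonic bases in GENCODE 29, 146 (4.79%) are shared with the opposite-strand noncoding gene DINOL, and the sources used here do not say whether counting used strand. DINOL was not analysed here.

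CDKN1B, which encodes p27, an inhibitor set largely by protein turnover, was spread widely among the knockdown libraries. It was at 51.1, 94.5 and 71.3 CPM in knockdown libraries and 62.5, 73.3 and 68.6 CPM in controls. Knockdown library 1 was below every control library and knockdown library 2 above every one. The log2 fold change was 0.08 (95% interval -0.39 to 0.56, edgeR adjusted p 0.873), and it was -0.17 without knockdown library 2. The intronic gene AC008115.3 lies within the span of CDKN1B and shares 0 exonic bases with it.

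Among the INK4 genes CDKN2A and CDKN2B are neighbours on chromosome 9, both on the minus strand, with 7601 bases between the spans listed in the table (21967753 to 21995301 and 22002903 to 22009363). Their values leaned in opposite directions, and neither passed the test. CDKN2B, whose product p15 is a known target of TGF-beta signalling, was at 85.0, 95.8 and 76.5 CPM in knockdown libraries, against 65.0, 66.0 and 66.8 CPM in controls. All knockdown libraries were above all controls, and the controls lay within 2 CPM of each other. The log2 fold change was 0.38 (95% interval 0.09 to 0.67, edgeR adjusted p 0.203), and the adjusted p ran from 0.0972 to 0.436 over the alternatives.

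CDKN2A, which encodes p16 and ARF, was at 118, 83.6 and 112 CPM in knockdown libraries, against 122, 143 and 152 CPM in controls. All knockdown libraries were below all controls, with library 2 the lowest. The log2 fold change was -0.41 (95% interval -0.77 to -0.04, edgeR adjusted p 0.265), and it was -0.28 without knockdown library 2. The adjusted p ran from 0.203 to 0.549 over the alternatives. On the deposited TPM, which is scaled to transcript length as well as to library size, the groups of CDKN2A overlapped, at 198, 140 and 204 TPM after knockdown against 194, 180 and 243 TPM in controls.

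CDKN2A shares 341 of its 4329 exonic bases (7.88%) with CDKN2B-AS1 (ANRIL), an antisense noncoding gene linked to Polycomb silencing of this locus. AL359922.1 spans both INK4 genes on the opposite strand and shares 0 exonic bases with either. CDKN2B-AS1 had 3.20 ± 0.104 CPM after knockdown and 3.77 ± 0.624 CPM in controls (SD, n = 3 each), with an edgeR adjusted p of 0.615. Without knowing the strand setting, reads from the shared bases cannot be told apart. Between CDKN2A and CDKN2B themselves, 0.681% and 0.765% of all 50-base words in their GENCODE 29 transcripts were common to both. The other 6 members shared no such word with the sense strand of another gene.

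CDKN2C and CDKN2D, the remaining INK4 genes, were at low levels with overlapping groups. CDKN2C (p18) was at 10.4, 12.4 and 11.0 CPM after knockdown and 8.93, 12.7 and 11.7 CPM in controls. CDKN2D (p19) was at 9.72, 7.01 and 9.82 CPM after knockdown and 8.93, 9.67 and 8.12 CPM in controls. Their log2 fold changes were 0.02 (95% interval -0.39 to 0.43, edgeR adjusted p 0.961) and -0.01 (-0.44 to 0.42, edgeR adjusted p 0.987). Both signs turned under some scalings.

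CDKN3, the phosphatase of CDK2, was at 26.8, 34.3 and 29.6 CPM after knockdown and 33.3, 37.7 and 34.5 CPM in controls. Knockdown library 2 reached into the control range. The log2 fold change was -0.22 (95% interval -0.54 to 0.11, edgeR adjusted p 0.486).

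**Figure D2:**
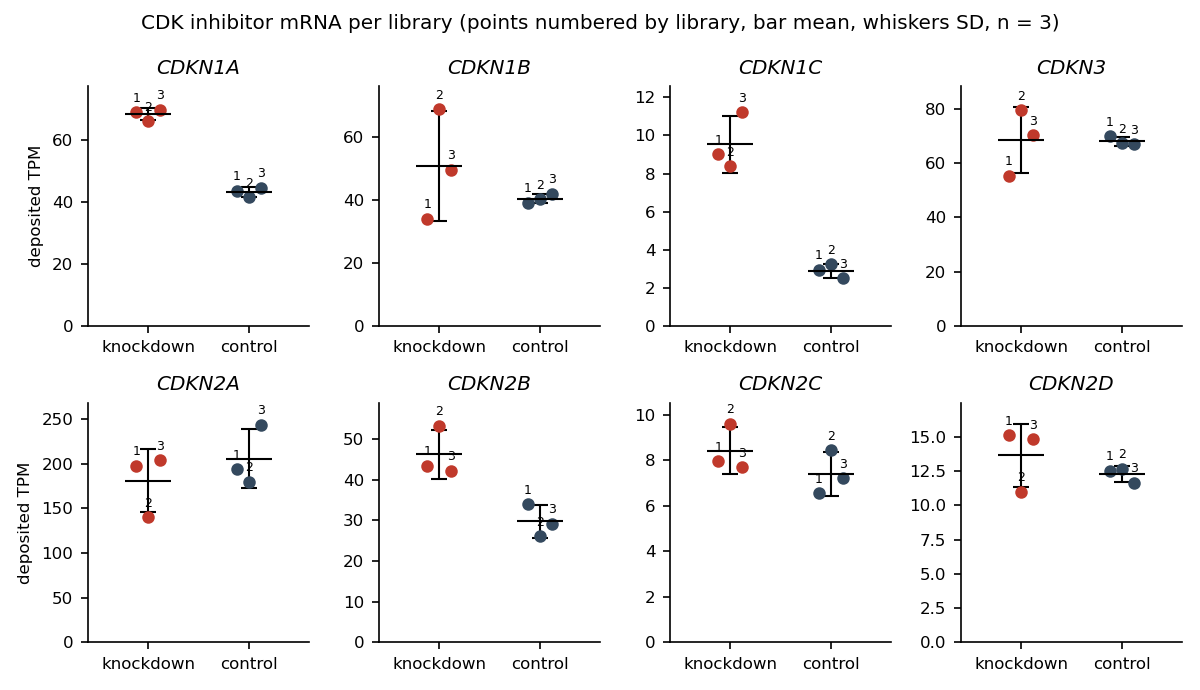
Deposited TPM of each CDK inhibitor gene (vertical axes, each from 0) in the 3 knockdown and 3 control libraries, with points numbered by library, the mean as a bar and the SD as whiskers. The groups are apart for CDKN1A, CDKN1C and CDKN2B and overlap for the other 5 genes. The share of all genes apart on TPM was not worked out, and their median log2 ratio of mean TPM was 0.28. Knockdown library 2 is the highest of CDKN1B and the lowest of CDKN2A.

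TPM allows levels to be set side by side across genes. CDKN2A was the most abundant inhibitor mRNA in both groups, at 181 ± 35.3 TPM after knockdown and 206 ± 33.4 TPM in controls (SD, n = 3 each). CDKN1C was 8th of 8 in controls, at 2.89 ± 0.377 TPM, below CDKN2C at 7.41 ± 0.959 TPM without overlap. After knockdown it was 7th, at 9.54 ± 1.49 TPM, and its libraries overlapped those of CDKN2C (8.42 ± 1.03 TPM) and CDKN2D (13.6 ± 2.31 TPM). CDKN1A was at 68.3 ± 1.93 TPM after knockdown, where its range overlapped those of CDKN3 (68.3 ± 12.2 TPM) and CDKN1B (50.9 ± 17.5 TPM). In controls CDKN1A was at 43.2 ± 1.55 TPM and overlapped only CDKN1B (40.5 ± 1.47 TPM) among its neighbours in the order, with CDKN3 above it at 68.0 ± 1.66 TPM. CDKN2B was at 46.2 ± 6.04 TPM after knockdown and 29.7 ± 4.01 TPM in controls.

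The family sums are on TPM, which ran higher after knockdown over genes in general, by a median log2 ratio of 0.28. Within the CIP/KIP family the summed level was 112, 143 and 131 TPM in knockdown libraries, against 85.7, 85.1 and 89.1 TPM in controls. CDKN1C gave 7.49% ± 1.44 of that sum after knockdown and 3.35% ± 0.512 in controls (SD, n = 3 each), so p57 mRNA was the smallest part of the family in both groups. The summed INK4 level was 264, 214 and 269 TPM after knockdown and 247, 227 and 292 TPM in controls, with overlapping groups. In it CDKN2B took 19.0% ± 5.10 after knockdown and 11.7% ± 1.90 in controls, and CDKN2A took 72.1% ± 5.73 after knockdown and 80.4% ± 2.71 in controls.

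Ratios of knockdown over control were higher on the TPM scale than on counts for every inhibitor gene. The fall of CDKN2A was therefore smaller, with a log2 ratio of mean TPM of -0.19 against -0.41 on counts. That log2 ratio was 0.0061 against -0.22 on counts for CDKN3, and 0.15 against -0.0083 for CDKN2D. The ratio of mean TPM, knockdown over control, was 3.30 for CDKN1C, 1.58 for CDKN1A and 1.56 for CDKN2B, where edgeR's folds on counts were 2.47, 1.35 and 1.30. Over the genes with TPM above 0 in both groups, the log2 ratio of mean TPM exceeded the edgeR log2 fold change by a median of 0.23. For CDKN1C the excess was larger, the log2 ratio of TPM being 1.72 against 1.31 on counts. The transcript length implied by the deposited counts and FPKM of CDKN1C averaged 1857 bases in knockdown libraries and 2101 bases in controls. The cause of that difference was not tested.

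The kinases that the inhibitors bind were looked at next, from lists of the surrounding pathway. Among 7 partner kinase and CDK-activating kinase genes, edgeR called 0, DESeq2 0 and limma-voom 0, and 3 had an unadjusted p under 0.05, 2 higher and 1 lower (over all genes 16.5%, 9.77% higher and 6.71% lower). CDK4, the kinase target of the INK4 proteins, had the lowest p. It was at 82.6, 71.5 and 87.5 CPM after knockdown, against 106, 114 and 99.6 CPM in controls (log2 fold change -0.40, edgeR adjusted p 0.187). Its partner target CDK6 was at 65.8, 105 and 80.7 CPM after knockdown, against 66.9, 55.2 and 57.4 CPM in controls (log2 fold change 0.49, edgeR adjusted p 0.247). CDK7, the kinase that activates other CDKs, had a fold change of 0.46 on the log2 scale (edgeR adjusted p 0.260). The INK4 targets leaned in opposite directions, and neither passed the test.

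Of 9 cyclin genes 7 were tested, and CCND2 and CCNA1 were removed by the filter on low counts. CCND2 had 0 counts in every library. CCNA1 had 12, 12 and 8 counts in knockdown libraries, against 0, 0 and 0 in controls, and was not tested. Both were named after their values were seen. Of the 7 tested, all 3 tools called 0, and 0 had an unadjusted p under 0.05. The lowest p was that of CCNB1, the mitotic cyclin, with a fold change of -0.27 on the log2 scale (edgeR adjusted p 0.341). CCNB2, another mitotic cyclin, had -0.11, and CCNE1, the G1/S partner of CDK2, had 0.10. Among the 7 tested cyclins 1, CCNE1, had groups that did not overlap, against 24.3% of all genes. CCND1, the main D-type cyclin here at 326 to 363 CPM after knockdown and 325 to 350 CPM in controls, was chosen after its values were seen.

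Among 13 pocket protein and E2F genes, the substrates of these kinases and the factors they release, all 3 tools called 0. At an unadjusted p under 0.05 there was 1, TFDP1, the dimer partner of E2F, with a fold change of -0.32 on the log2 scale (edgeR adjusted p 0.209). E2F4, a repressor-type E2F, had -0.30, and E2F7, an atypical repressor, had 0.25.

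Of 15 genes that degrade the inhibitors or serve the same ubiquitin ligases, edgeR, DESeq2 and limma-voom called 0 each, and 3 had an unadjusted p under 0.05, all lower, where 16.5% of all genes did, 6.71% lower. The median log2 fold change was -0.22, and it lay between -0.25 and -0.10 under the scalings tried. CKS1B, the cofactor with which the ligase SKP2 recognises p27, was at 95.5 ± 9.98 CPM after knockdown and 128 ± 12.8 CPM in controls (log2 fold change -0.42, edgeR adjusted p 0.187; SD, n = 3 each). CDC20, an activator of the anaphase-promoting complex, had -0.42 (edgeR adjusted p 0.198). UBAC1, part of a cytoplasmic ligase for p27, had -0.38 (edgeR adjusted p 0.217). Of the 5 kinase and phosphatase genes that switch CDKs by inhibitory phosphorylation, the 3 tools called 0, and 1 had an unadjusted p under 0.05. That gene was WEE1, an inhibitory kinase, with a fold change of 0.54 on the log2 scale (edgeR adjusted p 0.259). CDC25B, an activating phosphatase, had -0.38 and PKMYT1, another inhibitory kinase, -0.36.

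Among 33 regulators of inhibitor gene transcription, 1 rose, KLF4, and 0 fell. KLF4 is a zinc finger factor known to activate CDKN1A. It was at 67.3, 69.2 and 66.9 CPM after knockdown, against 25.2, 36.6 and 16.8 CPM in controls, without overlap. Its log2 fold change was 1.37 (edgeR adjusted p 0.0466), and the adjusted p ran from 2.02e-05 to 0.139 over the alternatives, of which 5 kept the call. At an unadjusted p under 0.05 there were 7, all higher, where 16.5% of all genes passed this limit, 9.77% higher. TP63, a p53 relative, had a fold change of 0.77 on the log2 scale (edgeR adjusted p 0.159). ETS2, an activator of p16, had 0.42 (0.201), and HEY1, a Notch effector, had 0.63 (0.227). The list median was 0.09, against 0.05 over all genes.

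**Figure D3:**
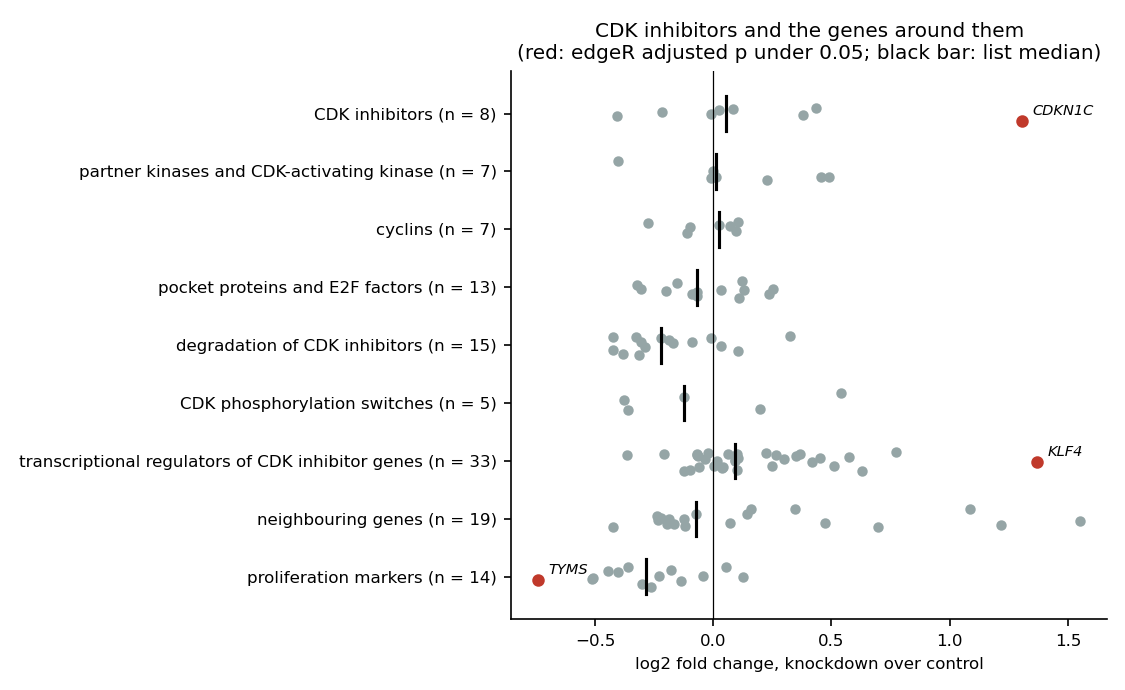
Log2 fold change, knockdown over control (horizontal axis), of every tested gene of the inhibitor family, of the pathway, regulator and neighbour lists around it and of the proliferation markers, each point a gene, with the list median as a black bar and genes at an edgeR adjusted p under 0.05 in red and named. CDKN1C at 1.31, KLF4 at 1.37 and TYMS at -0.74 are the red points, and the 8 inhibitors have a median of 0.05.

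The proliferation markers were set beside the inhibitors, and whether the inhibitors act on these markers was not tested. Of 14 markers 0 rose and 1 fell, and 12 had a log2 fold change below 0, as had 44.1% of all genes. Above 0 were MKI67 at 0.13 (edgeR adjusted p 0.898) and TOP2A at 0.05 (edgeR adjusted p 0.927), both named after their values were seen. An unadjusted p under 0.05 was seen for 8, all lower, and 9 had groups that did not overlap, against 6.71% lower and 24.3% not overlapping over all genes. The median was -0.28 and lay between -0.31 and -0.16 under the scalings tried. DESeq2, which called 701 of all 19040 genes against 223 with edgeR, called TYMS and MCM7 lower, and limma-voom called TYMS. TYMS, the thymidylate synthase, was at 29.7, 26.3 and 29.3 CPM after knockdown, against 45.3, 50.2 and 46.9 CPM in controls (edgeR adjusted p 0.0367). Its call held in 4 of 15 alternatives. The replicative helicase genes MCM7 and MCM5 had log2 fold changes of -0.51 (edgeR adjusted p 0.0912) and -0.51 (0.198). RRM2, a ribonucleotide reductase subunit, had -0.45 (edgeR adjusted p 0.183).

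Of 21 genes near the inhibitors 19 were tested, and edgeR called 0, limma-voom 0 and DESeq2 2, KCNQ1OT1 and APOLD1, both higher. Of these genes 4 had an unadjusted p under 0.05, all higher, against 16.5% of all genes, 9.77% higher. DESeq2 called more genes in general, 701 of all 19040 against 223 with edgeR. KCNQ1OT1 is the noncoding RNA transcribed within KCNQ1 that silences CDKN1C in cis on the paternal chromosome in normal tissue. It lies 183 kb from CDKN1C and was at 10.8, 15.1 and 14.3 CPM after knockdown, against 7.83, 4.59 and 4.87 CPM in controls. The groups did not overlap, and the fold change was 1.22 on the log2 scale (edgeR adjusted p 0.0654). The adjusted p ran from 0.000501 to 0.215 over the alternatives, and 3 of 15 passed.

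KCNQ1 itself, a potassium channel gene on the opposite strand, was under 1 CPM in every library, with a fold change of 1.55 on the log2 scale (edgeR adjusted p 0.154). Because KCNQ1OT1 is antisense to KCNQ1 and the strand setting is not given, the reads of this pair cannot be told apart. The listed genes on the other side of CDKN1C had overlapping groups. SLC22A18, an organic cation transporter gene 13.8 kb away, lay between 23.9 and 38.3 CPM after knockdown and between 33.6 and 37.6 CPM in controls. PHLDA2, an imprinted growth regulator, had a log2 fold change of 0.14, and NAP1L4, a histone chaperone gene, had 0.07. SLC22A18, PHLDA2 and NAP1L4 were named after their values were seen. APOLD1, an endothelial stress gene 3.55 kb from CDKN1B, was at 34.7, 16.4 and 38.7 CPM after knockdown, against 14.2, 14.9 and 13.2 CPM in controls. Its log2 fold change was 1.09 (edgeR adjusted p 0.139), and without knockdown library 2 the adjusted p was 0.0139, within a range of 0.0109 to 0.353 over the alternatives.

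**Figure D4:**
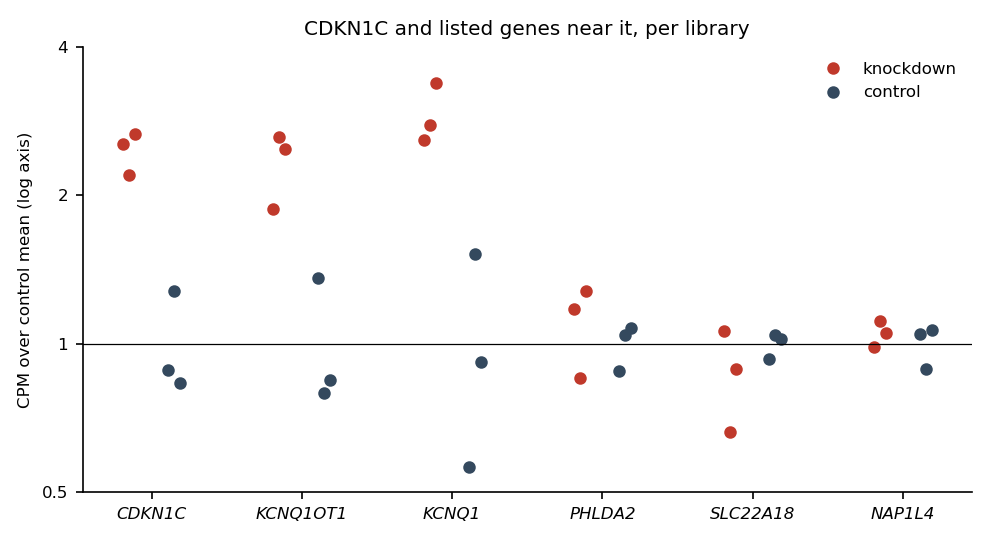
CPM divided by the control mean (vertical log axis) of CDKN1C and 5 listed genes near it, in the 3 knockdown libraries (red, left) and 3 control libraries (dark, right). CDKN1C, KCNQ1OT1 and KCNQ1 have all knockdown libraries above all controls, and PHLDA2, SLC22A18 and NAP1L4 have overlapping groups.

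The genes whose pattern over the 6 libraries was most like that of each inhibitor were found by the root mean square difference of centred log2 CPM, among 15147 genes of at least 1 CPM. Nearest to CDKN1C were TRPV3, an ion channel gene, at 0.112 and GADD45A, a growth arrest gene, at 0.133 log2 CPM. Nearest to CDKN1A were AP002478.1 at 0.0346 and PTK6, an epithelial tyrosine kinase gene, at 0.0396. ENTPD1-AS1 (0.0466) and PARP9 (0.0522) were nearest to CDKN2B, and VPS16 (0.0431) and RABAC1 (0.0459) to CDKN2A. CALM2 (0.0208) and NMI (0.0222) were nearest to CDKN1B, and HMGB3 (0.0210) and ME2 (0.0284) to CDKN3. PLPP1 (0.0418) and TSC22D1 (0.0441) were nearest to CDKN2C, and ASL (0.0230) and AKAP8L (0.0304) to CDKN2D. These are descriptions over 6 libraries that differ by group.

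Cell identity was checked with marker genes. The epithelial genes EPCAM, CDH1, KRT7, KRT8, KRT18 and KRT19 were all expressed, at 129 TPM or more in every library. Of the lung lineage genes NAPSA was at 2.04 to 2.99 TPM after knockdown and 1.54 to 3.30 TPM in controls, with NKX2-1 at 1.03 TPM or less and SFTPB and SFTPC at 0.157 TPM or less. In the 9 tested epithelial and lung genes edgeR, DESeq2 and limma-voom called 0, and 1 had an unadjusted p under 0.05, NKX2-1. The same tools called 0 of 2 tested immune and 0 of 3 tested endothelial markers, with 0 at an unadjusted p under 0.05 in each. The summed level of the 5 immune markers was 64.7 to 80.4 TPM after knockdown and 53.2 to 66.4 TPM in controls. Most of it was CD68, a lysosomal protein gene of macrophages, whose log2 fold change on counts was 0.05 (edgeR adjusted p 0.889). TPM ran higher after knockdown over genes in general, with a median log2 ratio of 0.28 against 0.05 for edgeR's fold change. The marker sums here were not adjusted for that shift. CD14, a monocyte receptor gene, was at 3.88 to 4.16 CPM after knockdown and 3.10 to 3.25 CPM in controls, without overlap (edgeR adjusted p 0.402), and LYZ was at 0.292 TPM or less. The T cell gene CD3E was at 0.0501 TPM or less, and PTPRC at 0.542 TPM or less. Of 3 tested fibroblast markers 1 rose, PDGFRB, where edgeR called 1.1% of all genes higher. PDGFRB was at 7.55, 4.30 and 7.28 CPM after knockdown, against 1.02, 0.651 and 0.838 CPM in controls. Its edgeR adjusted p was 0.00502, and its call held in all 15 alternatives. PDGFRB and DCN, a matrix proteoglycan gene, had an unadjusted p under 0.05, both higher, against 9.77% higher over all genes. DCN was at 1.37, 1.35 and 1.24 CPM after knockdown, against 0.615, 1.05 and 0.602 CPM in controls, without overlap (edgeR adjusted p 0.264). Summed over the 6 fibroblast markers the level was 15.5 to 26.3 TPM after knockdown and 10.5 to 13.9 TPM in controls, most of it COL1A1, while LUM was at 0 in every library and COL3A1 at 0.0348 TPM or less. The 4 endothelial markers summed to 17.0 to 24.4 TPM after knockdown and 12.1 to 18.6 TPM in controls. Most of it was CDH5, whose groups overlapped (edgeR adjusted p 0.899), and KDR was at 0.0153 TPM or less. Groups did not overlap for 2 of the 3 tested, both higher, against 24.3% of all genes, 13.4% higher. PECAM1 was at 11.4 to 13.4 CPM after knockdown and 9.08 to 10.9 CPM in controls (edgeR adjusted p 0.354). VWF was at 0.282 to 0.471 CPM after knockdown and 0.124 to 0.267 CPM in controls (edgeR adjusted p 0.432). The part of these levels in the rise of CDKN1C was not tested.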

How the data were processed

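Gene counts, TPM and FPKM of 58174 genes were deposited by the authors for 6 libraries sequenced on an Illumina platform. Per the labels' protocols, the authors quality-filtered and mapped the reads and counted them by gene. Their aligner, with its counter and strand setting, is not given in the sources used here. TPM deposited by the authors served for levels only, and the FPKM deposited by the authors only for implied length. The submitters' processing notes name hg19, but 96.8% of 57836 genes shared with GENCODE 29 had identical GRCh38 coordinates, 7 of the 8 members among them.

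Groups followed the labels. After filterByExpr (minimum 10 counts) and TMM scaling, edgeR 4.0.16 (R 4.3.3) fitted all 6 libraries. The adjusted p threshold was 0.05 over all genes tested, and standard errors were derived from the F statistic. Fold changes are log2, knockdown over control. Each library was counted as 1 replicate. Libraries of a group differed beyond counting noise (chi-square per degree of freedom 32.4 to 83.3, highest between knockdown libraries 1 and 2). That value cannot tell separate cultures from technical libraries of 1 culture. The code was checked on simulated data.

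Alternatives were DESeq2 1.42.0, limma-voom (limma 3.58.1), other scalings and filters, cyclic loess offsets that remove each library's abundance trend, the replicate number as a block, and leaving out each library. The named genes were all members, every list gene past the test (up to 6 a list) plus the 3 others of lowest p, genes whose span overlaps a member, and the 2 nearest in pattern to each member. Members and lists were chosen with earlier results of these data known. A gene was left out of the immune marker list and is not reported here. Promoter sequences came from RefSeq (GRCh38.p14), transcripts from GENCODE 29 and plots from matplotlib 3.10.9.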

Additional observations from a re-analysis of the deposited data

How the results depend on the processing

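Of 15 alternatives, CDKN1C kept its direction in all and its call in 7. Its log2 fold change was 1.18 with the abundance trend removed (adjusted p 0.0658), 1.30 without a filter (0.0556) and 1.32 with the replicate block (0.160), and 1.19 to 1.52 with 1 library left out. The members past the test were then 0, 0, 0 and 0 to 1. CDKN1A, CDKN2A, CDKN2B and CDKN3 kept their direction and stayed short of the threshold throughout. Leaving out 1 library gave log2 fold changes of -0.17 to 0.23 for CDKN1B, -0.12 to 0.13 for CDKN2C and -0.12 to 0.12 for CDKN2D. CDKN2C turned to -0.0087 with DESeq2 size factors, -0.041 with the abundance trend removed and -0.0084 with DESeq2. CDKN2D turned to 0.011 with upper-quartile scaling, 0.12 with library size only and 0.0086 with a stricter filter.

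Against 223 genes past the test, of which 209 were higher and 14 lower, 129 passed with the abundance trend removed, 147 without a filter, 82 with a stricter filter, 701 (483 higher, 218 lower) with DESeq2 and 34 with the replicate block, and 64 to 114 with 1 library left out. Of the genes of the other lists 3 passed, against 1, 1, 1, 6 and 1 under those settings and 1 to 2 with 1 library left out. Deviations from the group means correlated at 0.01, -0.08 and -0.03 between libraries sharing number 1, 2 or 3, which gave no sign of pairing. Library size only moved the median log2 fold change over all tested genes to 0.17, against 0.05, and CCNB2 turned to 0.017. With the abundance trend removed KRT19 turned to 0.10. With 1 library left out CD68 ran from -0.0895 to 0.14, COL1A1 from -0.022 to 0.27 and CDH5 from -0.19 to 0.36. Over 38 named list genes and all alternatives, 533 of 567 values kept direction and side of the threshold. All 48 TPM means recomputed with 1 library left out moved by less than 1 SD, which any 3 values must do, so this does not measure stability. Of 144 ranks of nearest genes 75 stayed within the nearest 2. The cause of these shifts was not tested. With 3 libraries a group, a biological coefficient of variation of 22.9% limits which of the smaller differences can be called.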
